A study of Mus musculus with 4 samples.

Results

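Histone genes were followed in RNA sequencing of cells taken from mouse cortex with beads for astrocytes, with and without deletion of Ezh2. The genes are the protein-coding rows of the deposited table whose symbol follows the current or the older naming of histone genes (H1f, H2ac, H2bc, H3c, H4c, H2az, H3f, H2ax, or the older Hist and H2af forms). The rule found 50 of the 29224 genes in the table. Of these, 40 are replication-dependent by name (36 core genes and 4 linker genes, H1f1 to H1f4) and 10 are variants. The core genes comprise 3 H2A, 14 H2B, 9 H3 and 10 H4 genes. A further 7 genes matched by name but were listed as pseudogenes or long non-coding RNA, and were left out.

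Core histones H2A, H2B, H3 and H4 form the protein spool on which DNA is wound, and linker histone H1 binds the DNA between spools. Replication-dependent histone genes lie in clusters, are used mainly while DNA is copied, and make mRNAs that usually end in a stem-loop in place of a poly(A) tail. Variant genes lie apart, often carry introns and poly(A) tails, and supply histones outside DNA replication, as in cells that have stopped dividing. Some of the variants here, among them H1f0, H1f10 and H2ax, have a single annotated exon. EZH2, the enzyme targeted in the knockout, places the mark H3K27me3 on histone H3.

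The Ezh2 f/f mice, the controls, carried Ezh2 alleles flanked by loxP sites, and the Ezh2 cKO mice carried the same floxed alleles with an iCre transgene driven by Aldh1l1, an astrocyte gene. Cells were taken from the cerebral cortex at postnatal day 5 with magnetic beads against GLAST (ACSA-1), a surface glutamate transporter of astrocytes, and 2 libraries were sequenced per group. The labels give neither sex nor the number of animals in a library, and do not say that libraries came from separate animals, so the p-values below measure the spread between these libraries, which may be technical. The series' text speaks of mRNA without saying whether it was selected by its poly(A) tail, so the counts of genes whose mRNA lacks that tail cannot be read as the amount of that mRNA in the cells.

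Totals ranged from 16273308 to 17522152 counts per library, and 3 counts, the limit that a count of 0 allows, came to 0.171 to 0.184 CPM (counts scaled to library size, here by the TMM method where a group mean is given). Ezh2 itself had 434 and 327 counts in the control libraries against 211 and 164 in the Ezh2 cKO libraries (log2 fold change -1.11, SE 0.16, edgeR adjusted p = 3.27e-05). Over the 16793 genes that passed the filter on low counts, edgeR called 34.7% higher in Ezh2 cKO and 33.6% lower (threshold 0.05 on the adjusted p), or 68.4% in either direction, so a call was common. Of the cell type lists, 13 of 15 tested astrocyte markers were higher in Ezh2 cKO and 0 lower, with Aldh1l1 (-0.15, edgeR adjusted p = 0.175) and Sox9 (-0.06, adjusted p = 0.758) not called. Neuron markers summed to 7128 to 7396 CPM in controls and 8927 to 9006 in Ezh2 cKO, more than the astrocyte markers in every library (964 to 1051 and 3744 to 4156). None of the listed markers was at 0 in every library. The values below are therefore those of a bead-selected fraction and not of astrocytes alone.

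A histone stem-loop was searched for in the longest GENCODE M21 transcript of each gene, as a stem of 6 bases that starts with gg, a loop of 4 bases that starts with tt, and the reverse complement of the stem. It was found in 27 of the 40 replication-dependent genes and in 1 variant, H2ax, against 112 of 17859 protein-coding genes (0.627%). The forms are shown because this mRNA end sets most replication-dependent genes apart from other genes, with the loop in capitals. The first was held by 14 genes, among them H1f2, H3c15 and H2bc6. The second was held by 5 H4 genes, the third by 5 H2B and H3 genes, the fourth by H4c9 and H4c14, the fifth by H2ax and the last by H4c11.
H1f2 form: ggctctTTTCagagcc
H4c8 form: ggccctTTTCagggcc
H3c6 form: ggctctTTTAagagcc
H4c9 form: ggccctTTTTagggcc
H2ax form: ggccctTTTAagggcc
H4c11 form: ggtcctTTTCaggacc

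The start sites of the genes that the results turn on were read from RefSeq on GRCm38.p6, from 250 bases before to 50 bases after the start, 5′ to 3′ on the gene's strand. Capitals mark the CCAAT box (CCAAT), the TATA box (TATAAA), the octamer (ATTTGCAT) and a histone H1 box (AAACACA), each searched on both strands, so that a match on the other strand appears as its reverse complement. H2bc4 had no window in the table. The window of H2ac6, an H2A gene, covers the 250 bases that separate it from H2bc4 in the deposited coordinates.
H2ac6, chr13:23683910-23684209, minus strand: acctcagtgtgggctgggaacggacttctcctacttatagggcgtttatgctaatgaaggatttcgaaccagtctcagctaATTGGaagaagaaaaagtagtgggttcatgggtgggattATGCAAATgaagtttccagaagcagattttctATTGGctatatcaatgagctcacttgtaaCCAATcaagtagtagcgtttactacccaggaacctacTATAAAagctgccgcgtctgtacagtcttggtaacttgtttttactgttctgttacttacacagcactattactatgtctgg
H1f2, chr13:23738557-23738856, plus strand: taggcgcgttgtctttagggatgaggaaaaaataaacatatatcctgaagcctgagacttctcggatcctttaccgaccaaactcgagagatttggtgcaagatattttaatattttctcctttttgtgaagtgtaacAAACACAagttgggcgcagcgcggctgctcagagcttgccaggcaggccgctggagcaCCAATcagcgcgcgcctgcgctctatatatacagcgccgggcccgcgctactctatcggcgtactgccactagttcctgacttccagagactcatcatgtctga
H3f3b, chr11:116024455-116024754, minus strand: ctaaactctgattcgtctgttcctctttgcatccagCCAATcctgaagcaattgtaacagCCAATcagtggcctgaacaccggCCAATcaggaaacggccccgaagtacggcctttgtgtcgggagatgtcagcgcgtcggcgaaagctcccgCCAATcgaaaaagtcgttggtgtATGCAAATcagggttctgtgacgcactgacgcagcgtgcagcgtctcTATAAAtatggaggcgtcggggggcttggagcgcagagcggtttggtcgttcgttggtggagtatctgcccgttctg
H3f3a, chr1:180813556-180813855, minus strand: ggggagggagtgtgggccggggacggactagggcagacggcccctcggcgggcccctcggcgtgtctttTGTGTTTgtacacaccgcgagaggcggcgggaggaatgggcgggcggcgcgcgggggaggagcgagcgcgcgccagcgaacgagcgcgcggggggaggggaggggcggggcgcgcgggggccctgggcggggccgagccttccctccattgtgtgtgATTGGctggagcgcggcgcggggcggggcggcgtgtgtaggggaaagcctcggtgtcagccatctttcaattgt

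A CCAAT box was present in 82.9% of the 35 windows of replication-dependent genes, in 62.5% of the 8 windows of variants and in 37.4% of all 32851 windows. TATAAA was present in 57.1%, 12.5% and 13.6% of these windows, and the octamer, the motif of many H2B promoters, in 20%, 12.5% and 1.74%. The H1 box stood in 11.4%, 12.5% and 7.18%. The 2 genes for H3.3 differ in these motifs. H3f3b holds 4 CCAAT boxes before its start, a TATAAA that begins 27 bases before it, an octamer on the other strand and no H1 box. H3f3a holds a single CCAAT box and an H1 box, both on the other strand, and no TATAAA or octamer. These matches describe the letters in the windows. No binding was measured, and a link between motifs and the changes in expression was not tested.

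The variants that were called fell and the replication-dependent genes that were called rose. Of the 10 variants, 7 passed the filter on low counts, and 5 of them were lower and 0 higher in Ezh2 cKO, beside 33.6% of all tested genes called lower. Of the 40 replication-dependent genes only 6 passed, and 4 of them were higher and 0 lower, beside 34.7% of all tested genes called higher. At an unadjusted p under 0.05 edgeR gave the same counts. Among the 4, H2bc6 and H3c15 reached the cutoff of the filter in both Ezh2 cKO libraries, but in only 0 and 1 control libraries. Passing in this way favours genes that are higher in Ezh2 cKO, so their count is no support for a direction of the class. The other 37 genes were too low to test.

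**Figure D1:**
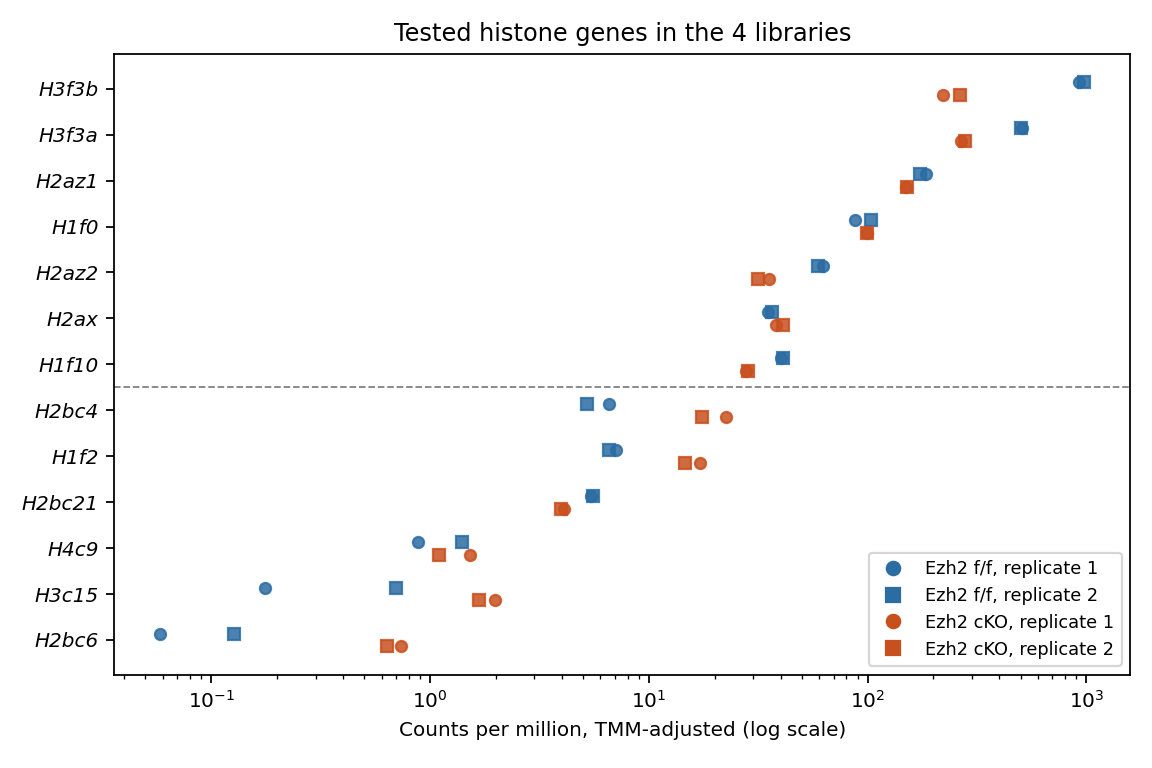
CPM, adjusted by the TMM method (log axis), of the 13 histone genes that passed the filter, with one symbol per library and variants above the dashed line. H3f3b lies at 927 and 978 in controls and at 220 and 265 in Ezh2 cKO, and H2bc4 at 6.55 and 5.21 against 22.6 and 17.5.

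Among the tested histone genes the largest fall was in H3f3b (ENSMUSG00000016559, listed on chromosome 11 from 115912738 to 115918788, minus strand), 1 of 2 genes that encode the same replacement histone, H3.3. It had 15852 and 15382 counts in the control libraries against 3884 and 4598 in the Ezh2 cKO libraries. Both Ezh2 cKO libraries lay far below both control libraries. Its level was 952 ± 35.8 CPM in controls and 243 ± 31.8 in Ezh2 cKO (SD, n = 2 each), 3.93-fold lower (log2 fold change -1.97, SE 0.10, edgeR adjusted p = 7.87e-10). The difference was larger than the spread between replicates and ranged from -2.24 to -1.84 over 11 alternative analyses. In these bulk libraries fewer cells of a type and less RNA per cell cannot be told apart.

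H3f3a (ENSMUSG00000060743, chromosome 1 from 180628397 to 180641508, minus strand), the other H3.3 gene, had 8697 and 7908 counts in controls and 4708 and 4834 in Ezh2 cKO. The groups did not overlap, and the fall was smaller than that of H3f3b. Its level went from 506 ± 4.21 to 273 ± 8.46 CPM (SD, n = 2 each; log2 fold change -0.89, SE 0.08, edgeR adjusted p = 3.17e-07). H3f3a shares 14.9% of its 50-base stretches with 38 other annotated genes, among them processed pseudogenes that had far fewer counts, and overlaps H3f3aos on the other strand, so its value is uncertain where reads could be split.

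Per length, H3f3b transcripts outnumbered H3f3a transcripts in controls and were about level with them in Ezh2 cKO. The ratio of their FPKM, reads scaled to gene length and library size, was 2.15 and 2.29 in the control libraries against 0.971 and 1.12 in the Ezh2 cKO libraries. Within each library the balance between the 2 genes thus shifted by more than the replicates differed, and a scaling of whole libraries does not enter this ratio. Together the H3.3 genes went from 1458 ± 31.6 to 515 ± 40.3 CPM (SD, n = 2 each), 2.83-fold lower. They held 76.8% and 77.2% of all counts of the 50 histone genes in the control libraries against 54.9% and 58.0% in the Ezh2 cKO libraries.

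The H2A.Z genes encode a variant that marks promoters and regulatory DNA, and they fell unequally. H2az2 (chromosome 11 from 6377229 to 6394443, minus strand) had 1073 and 936 counts in controls and 625 and 548 in Ezh2 cKO, with no overlap. Its level fell from 61.1 ± 2.30 to 33.5 ± 2.70 CPM (SD, n = 2 each; log2 fold change -0.87, SE 0.10, edgeR adjusted p = 3.42e-06). H2az1 (chromosome 3 from 137570248 to 137572683, plus strand), the more abundant H2A.Z gene per length, had 3173 and 2729 counts in controls and 2634 and 2617 in Ezh2 cKO. Its groups did not overlap either, but lay close together, at 179 ± 8.55 and 150.0 ± 1.16 CPM (SD, n = 2 each; log2 fold change -0.26, SE 0.09, edgeR adjusted p = 0.0180). The call on H2az1 was lost in limma on FPKM (-0.17, adjusted p = 0.0643), and in edgeR without control replicate 1 (adjusted p = 0.0872), Ezh2 cKO replicate 1 (0.0965) or Ezh2 cKO replicate 2 (0.0683), with alternatives spanning 0.00205 to 0.0965. Of its 50-base stretches, 33.2% occur in other genes. The FPKM ratio of H2az1 to H2az2 was 2.72 and 2.68 in the control libraries against 3.88 and 4.39 in the Ezh2 cKO libraries.

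Linker variants differed from each other. H1f10 (chromosome 6 from 87957403 to 87958619, minus strand), which encodes H1.10, a linker variant used outside replication, had 690 and 646 counts in controls and 490 and 494 in Ezh2 cKO. All Ezh2 cKO values lay below the control values (40.7 ± 0.502 and 28.1 ± 0.509 CPM, SD, n = 2 each; log2 fold change -0.53, SE 0.10, edgeR adjusted p = 4.20e-04). H1f10 overlaps Gm5577 on the other strand. H1f0 (chromosome 15 from 78912650 to 78914704, plus strand), which encodes H1.0, a linker histone that accumulates in differentiated cells, had 1492 and 1631 counts in controls and 1749 and 1724 in Ezh2 cKO. In CPM its groups overlapped, at 95.4 ± 11.6 and 99.2 ± 0.214 (SD, n = 2 each; log2 fold change 0.06, SE 0.10, edgeR adjusted p = 0.639). H1f0 overlaps Gm49544, whose reads could add to it on the other strand, and its sign turned to -0.06 without control replicate 1.

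H2ax (chromosome 9 from 44245991 to 44247374, plus strand) encodes the H2A variant that is phosphorylated at DNA breaks. It had 599 and 575 counts in controls and 670 and 712 in Ezh2 cKO. The groups did not overlap, at 35.8 ± 1.07 and 39.5 ± 2.18 CPM (SD, n = 2 each), but edgeR did not call the difference (log2 fold change 0.14, SE 0.10, adjusted p = 0.235). It was called higher in limma on FPKM (0.22, adjusted p = 0.0408) and with GC content and length removed (0.28, adjusted p = 0.0199), with alternatives spanning 0.0199 to 0.583. Of the germline linker variants, H1f7 had 1, 1, 0 and 4 counts and H1f8 had 2, 2, 3 and 2 (control libraries first), and H1f9 stayed under 3 in every library.

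**Figure D2:**
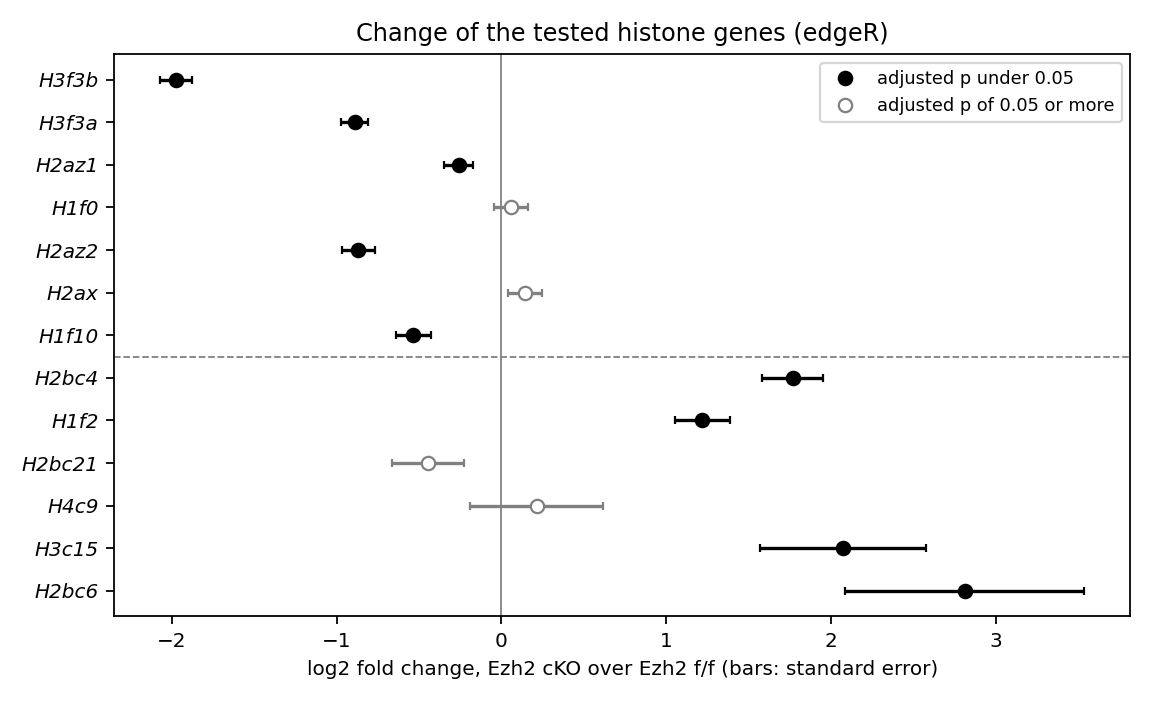
Log2 fold change (Ezh2 cKO over control, edgeR) of the 13 tested histone genes, with bars of 1 standard error and filled points for an adjusted p under 0.05. All 5 filled variant points above the dashed line lie left of 0, from -1.97 to -0.26. The 4 filled replication-dependent points lie right of it, from 1.22 (H1f2) to 2.81 (H2bc6, with 1 and 2 counts in controls). Of these 4, H2bc6 and H3c15 reached the cutoff of the filter in both Ezh2 cKO libraries but not in both control libraries. Their side is thus no support for a direction.

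Of the replication-dependent genes that rose, H2bc4 and H1f2 had the most counts. H2bc4 (ENSMUSG00000018102, chromosome 13 from 23868182 to 23876891, plus strand), a gene for H2B, had 112 and 82 counts in controls and 399 and 304 in Ezh2 cKO. Both Ezh2 cKO libraries lay above both control libraries. Its level rose from 5.88 ± 0.946 to 20.1 ± 3.59 CPM (SD, n = 2 each), 3.40-fold (log2 fold change 1.77, SE 0.18, edgeR adjusted p = 1.23e-06). Its annotated transcript of 1156 bases joins 2 exons and holds no stem-loop, and 30.1% of its 50-base stretches occur in other genes, so part of its counts could belong to other copies.

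H1f2 (ENSMUSG00000036181, chromosome 13 from 23922791 to 23924350, plus strand), which encodes the linker histone H1.2, had 121 and 103 counts in controls and 303 and 253 in Ezh2 cKO. The groups again did not overlap. Its level rose from 6.81 ± 0.374 to 15.9 ± 1.82 CPM (SD, n = 2 each), 2.33-fold (log2 fold change 1.22, SE 0.17, edgeR adjusted p = 1.89e-05). Its single-exon transcript runs on for 840 bases after the stem-loop, and 8.54% of its 50-base stretches are shared. The FPKM ratio of the variant H1f0 to H1f2 was 9.36 and 12.02 in controls and 4.38 and 5.17 in Ezh2 cKO. The variant thus had the higher FPKM in every library. Whether mRNA was selected by its poly(A) tail is not stated, so the ratio cannot rank the 2 mRNAs in the cells.

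**Figure D3:**
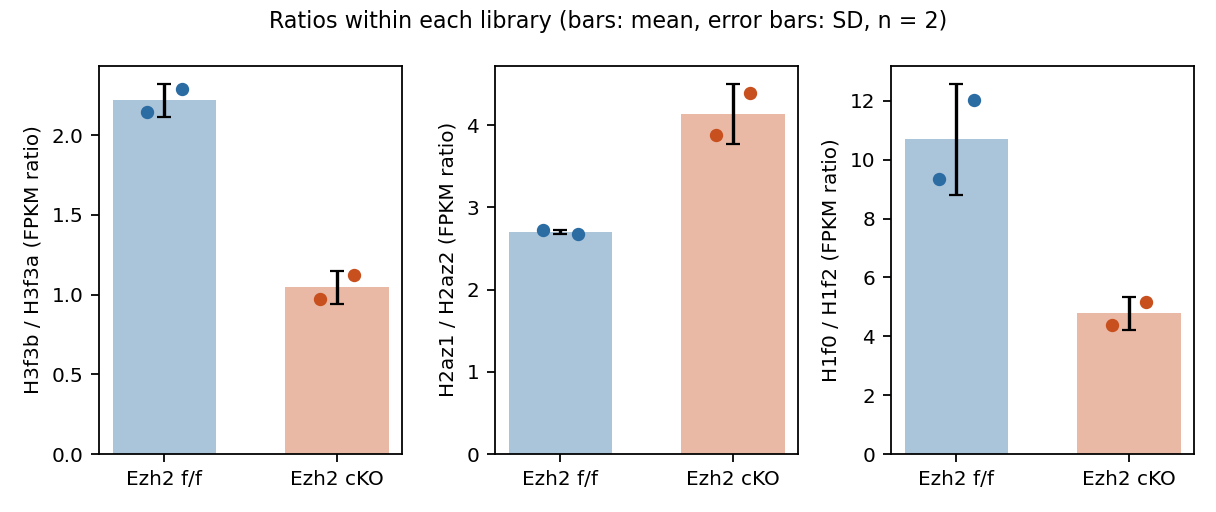
FPKM ratios within each library for H3f3b to H3f3a, H2az1 to H2az2 and H1f0 to H1f2, with points for libraries, bars for the mean and error bars for the SD (n = 2). The means were 2.22 and 1.05 for the H3.3 genes, 2.70 and 4.13 for the H2A.Z genes, and 10.7 and 4.78 for the linker genes, in controls and Ezh2 cKO.

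The other called genes rest on few reads. H3c15 (chromosome 3 from 96145424 to 96146443, minus strand), an H3 gene, had 3 and 11 counts in controls and 35 and 29 in Ezh2 cKO (0.437 ± 0.370 and 1.83 ± 0.220 CPM, SD, n = 2 each; log2 fold change 2.07, SE 0.50, edgeR adjusted p = 0.00223). The groups did not overlap, but 63.5% of its 50-base stretches occur in other genes. Its log2 fold change was 1.38 without control replicate 1, 3.31 without control replicate 2 and 1.03 in limma on log2(FPKM + 1), and the call was lost without Ezh2 cKO replicate 1 (adjusted p = 0.0527, with alternatives spanning 1.75e-05 to 0.0527).

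H2bc6 (chromosome 13 from 23767653 to 23805107, minus strand), an H2B gene, had 1 and 2 counts in controls, both under the floor, and 13 and 11 in Ezh2 cKO. Summed over libraries this was 3 against 24 counts, a ratio of 7.50 with an exact 95% interval of 2.28 to 38.9 that covers counting error only. The edgeR adjusted p was 0.00341, but the call was lost in DESeq2 (adjusted p = 0.0553) and without control replicate 1 (0.0558), with alternatives spanning 0.00213 to 0.0558. It could not be tested without Ezh2 cKO replicate 1, and its listed span of 37455 bases overlaps H1f4 on the same strand.

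H2bc21 and H4c9 passed the filter without a call. H2bc21, an H2B gene on chromosome 3, had 93 and 87 counts in controls and 72 and 69 in Ezh2 cKO (log2 fold change -0.44, SE 0.22, edgeR adjusted p = 0.0859). It was classed as replication-dependent by name alone. In its annotated transcript of 2620 bases no stem-loop was found, and 0% of its 50-base stretches occur in other genes. Its groups did not overlap, in the direction opposite to H2bc4, and it was called lower with GC content and length removed (-0.66, adjusted p = 0.0145, with alternatives spanning 0.0145 to 0.240). H4c9, an H4 gene, had 15 and 22 counts in controls and 27 and 19 in Ezh2 cKO, which overlapped (log2 fold change 0.21, SE 0.40, edgeR adjusted p = 0.651). Of all tested genes 42.8% had libraries that did not overlap with Ezh2 cKO higher, and 41.5% with Ezh2 cKO lower, so such separation was common.

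The summed counts of the 40 replication-dependent genes were 404 and 365 in controls and 894 and 733 in Ezh2 cKO, or 23.4 ± 0.301 and 46.4 ± 5.93 CPM (SD, n = 2 each). Without H2bc4 and H1f2, a split made after their values were seen, the other 38 genes summed to 10.7 ± 1.02 and 10.5 ± 0.517 CPM. That difference was smaller than the spread between replicates, but the sum joins moves in both directions. Within it H3c15 and H2bc6 were higher, while the 34 untested genes went from 3.57 ± 0.167 to 2.66 ± 0.154 CPM (SD, n = 2 each). Of the 40 genes, 10 had both Ezh2 cKO libraries above both controls and 15 had both below. Over all tested genes these shares were 42.8% and 41.5%, which is an unlike set, as 34 of the 40 were not tested. Many of the 40 lay near the floor, where library scaling or a single read can set the side. H2bc8, counted as below, had 2 counts in every library, and H2ac8, also below, had 1, 1, 0 and 1 (control libraries first). These numbers therefore give no direction of the class. H2bc4 and H1f2 held 57.7% and 50.7% of the replication-dependent counts in controls and 78.5% and 76.0% in Ezh2 cKO. The sum over the 10 variants went from 1871 ± 34.0 to 866 ± 41.7 CPM (SD, n = 2 each), 2.16-fold lower. Without the H3.3 genes the other 8 variants went from 413 ± 2.38 to 351 ± 1.42 CPM (SD, n = 2 each), 1.18-fold lower. Variants held 98.7% and 98.8% of all histone counts in controls and 94.3% and 95.5% in Ezh2 cKO. These are shares of counts and cannot be read as shares of histone mRNA in the cells.

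The 34 replication-dependent genes that were not tested had 59, 58, 45 and 48 counts in all (control libraries first, here and below), and 19 of them stayed under 3 counts in every library. These were the linker genes H1f1, H1f3 and H1f4, the H2A genes H2ac8 and H2ac13, the H2B genes H2bc7, H2bc8, H2bc13, H2bc14, H2bc22, H2bc23 and H2bc24, the H3 genes H3c3, H3c7 and H3c8, and the H4 genes H4c11, H4c12, H4c17 and H4c18. Among the others, H2ac6, the neighbour of H2bc4, had 2, 1, 7 and 8 counts. H4c14 had 0, 0, 4 and 4 counts and H4c1 had 0, 0, 5 and 1. With 3 counts in place of each 0, H4c14 was 1.25-fold higher in Ezh2 cKO. Such a value, here and below, leaves out the counting error of the other libraries. Without the filter edgeR did not call H4c14 (adjusted p = 0.0631). Others lay on the opposite side. H3c1 had 5, 4, 0 and 0 counts (1.59-fold lower with 3 counts in place of each 0) and H4c3 had 4, 5, 0 and 0 (1.61-fold lower). Without the filter on low counts, edgeR called both lower (adjusted p = 0.0385 and 0.0389), beside 19.1% of all 29224 genes called lower in that fit. It called the same number of replication-dependent genes higher, 4, beside 19.7% of all genes.

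The remaining genes were not called without the filter either, and a change in them was not detectable at this depth. Of the H2B genes, H2bc3 had 3, 4, 1 and 0 counts, H2bc9 had 0, 2, 0 and 3, H2bc11 had 6, 4, 3 and 1, and H2bc12 had 4, 0, 0 and 0. Of the H3 genes, H3c4 had 0, 0, 1 and 3 counts, H3c6 had 5, 6, 2 and 2, H3c10 had 4, 0, 0 and 1, and H3c11 had 2, 3, 1 and 0. Of the H4 genes, H4c4 had 5, 8, 1 and 4 counts and H4c8 had 6, 5, 7 and 9. By family, the untested H2B genes summed to 18, 16, 10 and 9 counts, the untested H3 genes to 18, 16, 6 and 7 and the untested H4 genes to 16, 21, 20 and 19. The H2A genes, of which 0 were tested, had 4, 3, 7 and 10 counts in all.

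The 40 replication-dependent genes were also described by how their annotated mRNA ends. Of the 9 genes with under 60 bases after the stem-loop, 0 passed the filter, and the highest total over the 4 libraries was 27 counts. None of the 3 genes with 60 to under 300 bases passed either. Of the 15 genes with 300 or more bases after the stem-loop, 4 passed (H1f2, H3c15, H2bc6 and H4c9), and of the 13 with no stem-loop in the longest transcript, 2 passed (H2bc4 and H2bc21). Some of the 13 have short annotated transcripts (312 bases for H4c12 and 381 for H2bc13). A stem-loop may lie beyond such an annotated end, so these 13 are not a class of genes shown to lack it. The median total was 4 counts in the group with the shortest ends, 9 in that with the longest and 3 where no stem-loop was found, so the median gene of each of these groups averaged under 3 counts per library. Copies are also hard to tell apart: a median of 45.6% of 50-base stretches of a replication-dependent gene occur in other genes, against 0% for the variants.

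**Figure D4:**
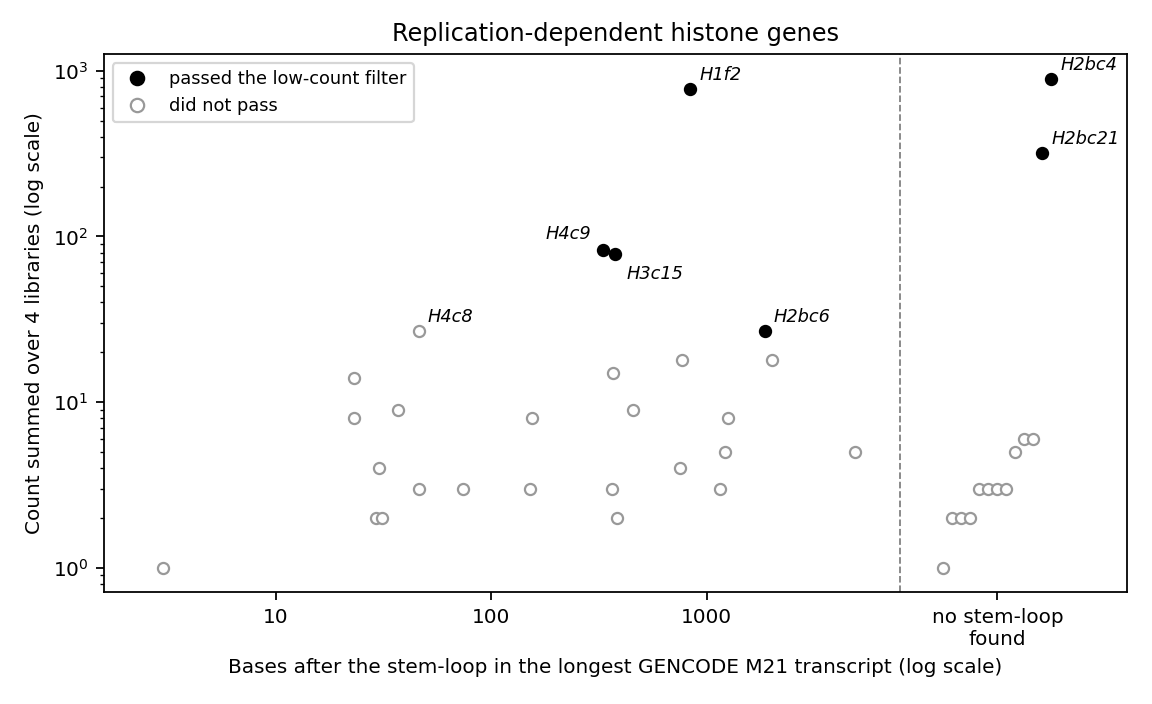
Count summed over the 4 libraries (log axis) of each of the 40 replication-dependent genes against the bases annotated after its stem-loop (log axis), with genes in whose annotated transcript no stem-loop was found at the right, spread sideways for clarity. The 6 filled points, which passed the filter, have 300 or more bases after the stem-loop or no stem-loop found.

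Per length, in mean FPKM, the order of levels in controls was H3f3b (311 ± 9.63), H3f3a (140 ± 2.10), H2az1 (98.2 ± 5.33), H1f0 (45.1 ± 5.19), H2az2 (36.4 ± 1.61), H1f10 (32.5 ± 0.185) and H2ax (25.1 ± 0.587), all above H2bc4 (4.94 ± 0.828) and H1f2 (4.24 ± 0.261; SD, n = 2 each). H2bc4 and H1f2 did not differ beyond their spread. The place of replication-dependent genes in this order of FPKM need not be that of their mRNA in the cells. In Ezh2 cKO the 3 leading genes, H2az1 (87.0 ± 1.96), H3f3b (84.0 ± 12.3) and H3f3a (80.1 ± 3.67), differed from each other by less than the SD of H3f3b. H2bc4 reached 17.8 ± 2.93 and H1f2 10.5 ± 1.05, and H2bc4 lay just under H2az2 (21.1 ± 1.39).

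Genes whose products handle histones fell more often than they rose. Of the 37 tested genes for histone chaperones and exchange factors, which carry histones and place them on DNA, 26 were lower and 4 higher (beside 33.6% and 34.7% of all tested genes), with a median log2 fold change of -0.71 beside 0.02 over all genes tested. For H3.3, Hira, a chaperone for H3.3 at active genes, had 1020 and 941 counts in controls and 484 and 424 in Ezh2 cKO (log2 fold change -1.20, edgeR adjusted p = 1.72e-07). Daxx, the H3.3 chaperone of repeats and telomeres, had 1445 and 1410 against 674 and 676 (-1.17, adjusted p = 8.36e-08). Both were lower in each Ezh2 cKO library, while Atrx, the partner of Daxx, overlapped between groups with 1362 and 1090 against 1089 and 1346 counts (-0.10, adjusted p = 0.478).

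The genes named here that handle newly made H3 and H4 were lower or not called. Chaf1b, a subunit of the complex that deposits histones behind the replication fork, had 544 and 585 counts in controls and 55 and 52 in Ezh2 cKO (log2 fold change -3.49, SE 0.17, edgeR adjusted p = 6.81e-10). Its partner Chaf1a was at -1.60 (adjusted p = 2.36e-07) and Asf1b, which hands histones to that complex, at -0.76 (adjusted p = 0.0190). In the same edgeR fit Asf1a (-1.14, adjusted p = 6.56e-05), Nasp (-0.70, adjusted p = 3.49e-05) and Rbbp4 (-0.51, adjusted p = 2.64e-04) were lower too. Hat1, which acetylates new H4, was not called (0.18, adjusted p = 0.308), nor were Rbbp7 (0.07, adjusted p = 0.524) and Ipo4 (-0.07, adjusted p = 0.564). Supt6 (-1.16) and Ssrp1 (-1.20), which move histones during transcription, were the next lower genes of the list by p after Chaf1b. The higher genes included Nap1l3 (1.46), Nap1l2 (1.22) and Nap1l5 (0.66), of the nucleosome assembly protein family, the first 2 of which are known for their use in neurons. Of the same family, Nap1l4 (-0.66, adjusted p = 1.19e-05) and Nap1l1 (-0.22, adjusted p = 0.0405) were lower. Asf1a, Nasp, Rbbp4, Hat1, Rbbp7, Ipo4, Nap1l4 and Nap1l1 were named after their values were seen.

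Of the 18 tested genes that process or control histone mRNA, 10 were lower and 5 higher, beside 33.6% and 34.7% of all tested genes (median log2 fold change -0.56). Slbp, which binds the stem-loop, had 250 and 260 counts in controls and 257 and 336 in Ezh2 cKO, with overlap (0.12, SE 0.16, edgeR adjusted p = 0.512). Npat, the activator of replication-dependent histone genes, had 218 and 186 against 108 and 137 counts and was lower (-0.81, adjusted p = 0.00120). Also lower were Srrt (-1.51), a partner of the mRNA cap complex, Coil (-1.25), the scaffold of Cajal bodies, and Upf1 (-1.08), which acts in histone mRNA decay. Higher were the cap-binding gene Ncbp2 (1.46), Lsm11 (0.84), a part of the U7 particle that cuts histone mRNA, and the cleavage factor gene Cstf2 (0.59).

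Replication genes, whose activity accompanies that of replication-dependent histones, were mostly lower. Of 29 tested, 18 were lower and 1 higher, beside 33.6% and 34.7% of all tested genes (median log2 fold change -0.73). By p, the leading lower genes were Mcm7 (-2.09), Cdt1 (-1.98) and Mcm5 (-1.19), which license or unwind DNA, and the higher gene was Ccne1 (0.83), a cyclin of entry into replication. Mki67, a marker of dividing cells, had 372 counts in each control library and 208 and 188 in Ezh2 cKO (22.7 ± 1.34 and 11.3 ± 0.669 CPM, SD, n = 2 each; edgeR adjusted p = 2.32e-05). Pcna, the sliding clamp of DNA polymerase, overlapped between groups (1152 and 835 against 961 and 893 counts; -0.19, adjusted p = 0.151). H2bc4 and H1f2 were higher in the same Ezh2 cKO libraries, and a relation between their rise and replication was not tested.

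**Figure D5:**
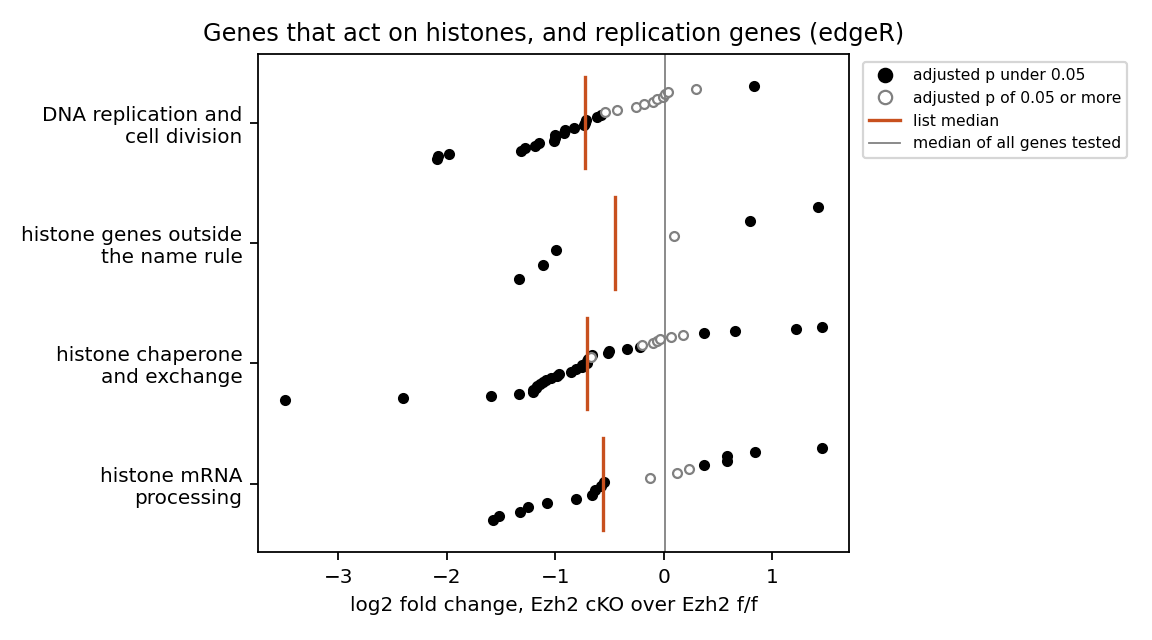
Log2 fold change (Ezh2 cKO over control, edgeR) of each tested gene in 4 lists, with filled points for an adjusted p under 0.05, a vertical mark at each list's median and a grey line at the median of all genes tested. Chaperone and exchange genes lie mostly left of 0 (26 lower, 4 higher), as do replication genes (18 lower, 1 higher).

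Histone genes with names outside the rule were counted apart. Of 6 tested, 3 were lower: Macroh2a2 (log2 fold change -1.34) and Macroh2a1 (-1.11), for the large H2A variants of silent chromatin, and Cenpa (-0.99), for the H3 variant of centromeres. A further 2 were higher, H2aw (1.42) and H2aj (0.79), both H2A genes. H2bu2 was at 0.09 (edgeR adjusted p = 0.410). With 33.6% of all tested genes lower and 34.7% higher, these counts were near the background.

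Markers of several cell types also differed between the groups, beside 34.7% of all tested genes called higher and 33.6% called lower. Neural progenitor markers were called lower in 8 of 10 and higher in 2, although their summed level overlapped (628 to 674 CPM in controls, 606 to 684 in Ezh2 cKO). Microglia markers (8 of 8 higher, 79.9 to 84.7 against 227 to 267 CPM) and oligodendrocyte lineage markers (8 of 8 higher, 220 to 223 against 867 to 999) were higher in Ezh2 cKO. Of 12 neuron markers 7 were higher and 3 lower, of 8 vascular markers 3 and 2 (389 to 395 against 467 to 533 CPM), and of 5 tested erythroid markers 3 and 0 (373 to 451 against 464 to 469). The vascular counts were near the shares over all tested genes. The erythroid count of 3 fell to 0 without control replicate 1 and to 0 without Ezh2 cKO replicate 1. The vascular count of 2 lower genes fell to 1 in all but 2 of the 11 alternatives, and the count of 2 higher progenitor markers to 1 without Ezh2 cKO replicate 1. The part of these cell types in the changes of H3f3b, H3f3a, H2bc4, H1f2 and the chaperone genes was not tested.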

How the data were processed

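There were 2 libraries from Ezh2 f/f mice (controls) and 2 from Ezh2 cKO mice. For each gene the authors deposited raw read counts and FPKM values (reads scaled to gene length and library size). The submitters' processing notes name Bowtie2 2.2.3, TopHat2 2.0.12, HTSeq 0.6.0 and mm9; the annotation and use of strand are not given in the sources used here. Listed coordinates are printed as deposited and are not those of GRCm38: 581 of 28799 genes matched to GENCODE M21 had the same coordinates, and 0 of the 50 members. The deposited comparison of the groups (fold change, log2 value, p-values and direction) was not used, and 0 sample columns were left out.

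Members, lists and tests were chosen with earlier results of these data known. Counts were filtered (filterByExpr), normalized by TMM (factors 0.976, 0.967, 1.019 and 1.040) and tested in edgeR 4.0.16 (R 4.3.3) by the quasi-likelihood test with group as the only term, with Benjamini-Hochberg adjustment over 16793 genes and a threshold of 0.05. No permutation test of 2 libraries against 2 can go below p = 0.333. Replicates were not duplicates of one library (chi-square divided by its degrees of freedom 8.92 for controls and 5.68 for Ezh2 cKO). Alternatives were DESeq2 1.42.0, its size factors, no filter, a mean of at least 50 counts, limma 3.58.1 on log2(FPKM + 1) for genes with FPKM of at least 1 in 2 libraries, GC content and length removed by offsets (values for 98.5% of genes), the replicate number as a block, and each library left out. The steps were tested on simulated data in which few genes changed, all of them well counted. That setting differs from these data, where 68.4% of tested genes were called and many members had few counts, so it does not check those members. Stem-loops and shared 50-base stretches came from GENCODE M21 transcripts, and start windows from RefSeq (GRCm38.p6). Named genes were all called variants, tested linker genes, the highest tested core genes, H3f3a and H3f3b, untested members with 3 or more counts in a library, and from each list the 3 genes with the smallest p in each direction plus a fixed set of histone chaperone, processing and replication genes. Figures used matplotlib 3.10.9 in Python 3.11.15.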

Additional observations from a re-analysis of the deposited data

How the results depend on the processing

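H3f3b, H3f3a, H2az2, H1f10, H2bc4, H1f2 and Ezh2 kept their direction and their call under all 11 alternatives (Ezh2 from -1.33 to -0.72, largest adjusted p = 0.00391). Of replication-dependent genes, 2 were called higher with a mean of at least 50 counts, where 10 histone genes were tested, and 2 to 4 with a library left out (2 without Ezh2 cKO replicate 1). Called lower were 2 without a filter (H3c1 and H4c3) and 1 with GC content and length removed (H2bc21). Of the variants 1 was called higher in limma and 1 with GC content and length removed (H2ax in both), and 4 to 5 were called lower throughout. Replication genes called higher numbered 1 to 2 with a library left out, 2 of them without control replicate 1. The log2 fold change of H4c9 ranged from -0.091 to 0.56 with a library left out (-0.091 without control replicate 1 and -0.047 without Ezh2 cKO replicate 1). That of H1f0 ranged from -0.064 (without control replicate 1) to 0.17, so neither has a direction here. Same-numbered libraries deviated together only weakly (r = 0.134 across genes), and nothing in the labels pairs them. With the replicate block edgeR called 5796 genes higher and 5599 lower, and the calls among histone genes kept their numbers (4 higher replication-dependent, 5 lower variants). Of the 40 replication-dependent genes 19 had under 3 counts in every library, and the median total of the 40 over the 4 libraries was 5 counts, so depth limits any comparison of them.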
